A study of Mus musculus with 6 samples.

Results

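The BCL2 family controls the mitochondrial route of apoptosis, and its transcripts were compared between fetal and adult mammary cells for 10 genes, measured by 12 of the 55681 probes on the array (20660 genes could be matched in all). A probe was taken for a gene when the transcript accession given with it belongs to that gene, and Mcl1 and Bcl2l1 each had 2 probes. RNA came from C57Bl6/J mice. The methods of the study give the sex of the adult mice, which were female, and not that of the fetuses. The E18.5 fetal cells (embryonic day 18.5) came from the fetal mammary gland and were EpCAM++CD49f+ and negative for CD31, CD45 and Ter119, while glands of mice aged 8 to 12 wk gave the adult basal cells, sorted as EpCAM+CD49f+ cells that lack CD31, CD45, Ter119 and BP-1. Cells were isolated fresh, without treatment, and each population was measured in 3 biological replicates on 3 single-color Agilent SurePrint G3 Mouse GE arrays. The fetal glands were digested briefly and the adult glands overnight, so age, sort phenotype and digestion cannot be told apart in any difference given here.

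Proteins of the family share short BCL2 homology (BH) motifs and meet at the outer membrane of the mitochondrion. BAX and BAK1 are the effectors, which form pores through which cytochrome c leaves and activates caspases. BCL2, BCL2L1 (BCL-XL) and MCL1 hold the effectors in check, and the BH3-only proteins BCL2L11 (BIM), BBC3 (PUMA), PMAIP1 (NOXA), BMF and BID carry stress signals to these guardians or to the effectors themselves. In the mammary gland the pathway is best known for lumen formation, when inner cells of solid cords die, and for involution after weaning. Much of its control is exerted on the proteins, which an array does not measure.

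The fetal and adult cells differed by 2-fold or more in the effector Bax, in the BH3-only gene Pmaip1 and on 1 of the 2 probes for Mcl1. Bax was 2.07-fold higher in adult basal cells, Pmaip1 was 11.7-fold higher in fetal cells, and the dimmer Mcl1 probe was 2.97-fold higher in fetal cells. By the strict rule of the study (limma's test with Holm's adjustment at 0.05, together with a change of 2-fold or more), only that Mcl1 probe passed, beside 11.1% of all probes. Through the brightest probe of each gene 0 of the 10 genes were called. Of all genes, 6.02% were called as higher in fetal and 5.2% as higher in adult basal cells. The same fit gave 8 of the 10 genes an unadjusted p under 0.05, which held for 63.8% of all 15725 genes tested. With Benjamini-Hochberg adjustment over all probes and the same 2-fold limit, Pmaip1 was called as higher in fetal cells (15.8% of all genes) and Bax as higher in adult basal cells (13.9% of all genes). The other 8 genes moved by less than 2-fold on their brightest probe.

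The upstream sequences of Mcl1 and Bax are shown because these are the guardian and the effector with a probe that moved by 2-fold or more. They are the 250 bases that precede the RefSeq start of transcription in the GRCm38.p6 assembly, read 5′ to 3′ on the strand of the gene, at chr3:95658471-95658720 (plus strand) for Mcl1 and chr7:45466899-45467148 (minus strand) for Bax. Capitals mark matches on either strand to a GC box (GGGCGG), an E-box (CACGTG), an ETS site (CCGGAAG), an AP-1 site (TGANTCA) or a p53 response element decamer.
Mcl1: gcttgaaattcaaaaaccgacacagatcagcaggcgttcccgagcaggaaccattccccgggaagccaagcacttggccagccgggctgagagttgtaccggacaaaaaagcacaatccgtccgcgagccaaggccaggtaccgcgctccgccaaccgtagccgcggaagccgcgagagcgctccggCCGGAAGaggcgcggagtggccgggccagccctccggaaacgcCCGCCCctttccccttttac
Bax: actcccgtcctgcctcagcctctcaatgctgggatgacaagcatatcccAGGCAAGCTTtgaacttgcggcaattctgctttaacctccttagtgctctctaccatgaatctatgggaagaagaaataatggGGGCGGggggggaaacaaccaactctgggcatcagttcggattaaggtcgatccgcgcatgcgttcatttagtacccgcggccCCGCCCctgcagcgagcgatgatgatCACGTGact
The Mcl1 window held 1 GC box, 20 bases before the start, and 1 ETS site at 63 bases, and 64.4% of its bases were G or C. In the Bax window were 2 GC boxes (118 and 35 bases before the start), 1 E-box at 9 bases and 1 p53 decamer at 201 bases, with 54% G or C. Windows of the same length hold a GC box in 32.7% of 32851 RefSeq promoters, an E-box in 6.02%, an ETS site in 6.91%, an AP-1 site in 6.75% and a p53 decamer in 7.13%. RefSeq promoters were matched for 9 of the 10 genes (16 windows, since some genes have several starts), of which 0 held an AP-1 site and those of Bax and Bmf held a p53 decamer. The gene without a matched promoter was not scanned, and nothing is stated here on motifs of Pmaip1. A match describes letters only, and no binding was measured.

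All 12 probes had signal well above background on each of the 6 arrays and passed the filter on low signal, so none of their values is a bound. Values are log2 signals after quantile normalization of the 6 arrays, and a change is the mean of fetal minus the mean of adult basal arrays. A level describes its own probe and cannot be set against that of another probe as transcript abundance, so that the brightest probe of a list names a signal only. The spread between replicates was small: the median SD of the 12 probes was 0.13 among fetal and 0.16 among adult basal arrays (log2, n = 3 in each), beside 0.12 and 0.18 over all 20448 probes tested. The median size of a change, without its sign, was 0.42 for the 12 probes and 0.55 for all probes tested. With 3 replicates in each population, permuting the arrays exactly yields p values of 0.1 or more for any probe, and the adjusted p values rest on limma's pooling of the variance over probes. In sorted cells measured in bulk, more cells that hold a transcript and more transcript per cell cannot be told apart.

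**Figure D1:**
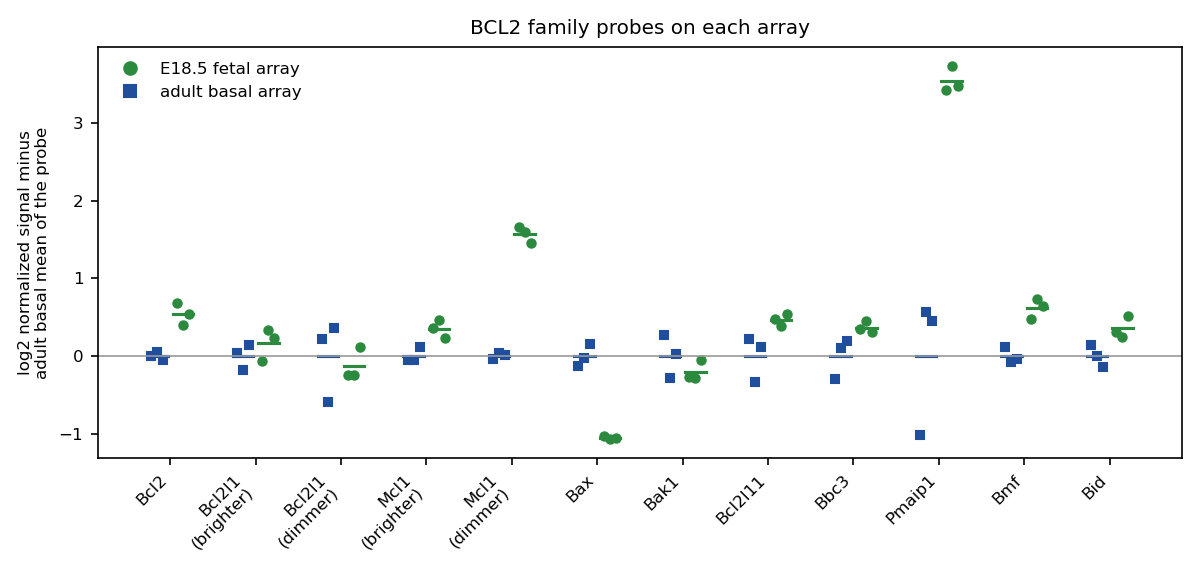
Log2 normalized signal of each BCL2 family probe on each of the 6 arrays, drawn as the distance from the adult basal mean of that probe (green circles, fetal arrays; blue squares, adult basal arrays; short lines, means; brighter and dimmer name the 2 probes of a gene). Fetal and adult basal arrays lie farthest apart for Pmaip1, Bax and the dimmer Mcl1 probe, and adult basal 1 lies below the other adult basal arrays for Pmaip1.

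Among the guardians, Bcl2 and Mcl1 were higher on every fetal array than on any adult basal array, and Bcl2l1 was not. The same held for 33.4% of all genes tested. Bcl2, the founding member of the family, read 11.64, 11.35 and 11.49 on fetal arrays 1 to 3 against 10.96, 11.001 and 10.90 on adult basal arrays 1 to 3 (probe A_51_P380013). The fetal arrays were all higher, by 0.54 on average (standard error, SE, 0.11, Benjamini-Hochberg-adjusted p = 0.0039, Holm-adjusted p = 1 by limma), or 1.45-fold.

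Mcl1 encodes a guardian with a short-lived protein, and its 2 probes both read higher in fetal cells, by unequal amounts. The brighter probe, A_51_P238786, gave 14.22, 14.33 and 14.09 in the fetal replicates against 13.81, 13.81 and 13.98 in the adult basal replicates. Its change of 0.35 (SE 0.11, Benjamini-Hochberg-adjusted p = 0.028, Holm-adjusted p = 1 by limma) amounted to 1.27-fold. The dimmer probe, A_52_P93933, gave 13.01, 12.95 and 12.81 in the fetal replicates against 11.31, 11.38 and 11.36 in the adult basal replicates. All fetal arrays were far above all adult basal arrays, and the change was 1.57 (SE 0.10, 95% interval 1.33 to 1.81, Holm-adjusted p = 0.016 by limma). That Holm call was lost whichever single array was left out, with p between 0.061 and 0.283, while the change stayed between 1.53 and 1.63. Within the first slide, which held fetal array 1 with adult basal arrays 1 and 3, the change was 1.67, and within the other slide it was 1.495. The change of the dimmer probe exceeded that of the brighter one by 1.22, a description only, since this difference was picked out after the values were seen. Between the 2 Bcl2l1 probes the same difference was -0.29. Both probes carry the accession of the same Mcl1 transcript, and their positions along it were not used here. Averaged over both probes, Mcl1 changed by 0.96 (SE 0.10) with a Holm-adjusted p of 0.312 by limma.

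Bcl2l1, which encodes BCL-XL, showed no detectable difference on either probe. The brighter probe, A_55_P1974877, read 12.37, 12.77 and 12.66 in the fetal replicates against 12.48, 12.25 and 12.57 in the adult basal replicates, so that the populations overlapped. Its change was 0.17 with a 95% interval from -0.17 to 0.50, which lies within 2-fold in either direction. The dimmer probe, A_52_P510877, also overlapped, with 6.997, 7.01 and 7.36 in the fetal replicates against 7.47, 6.66 and 7.61 in the adult basal replicates. It changed by -0.13 with a 95% interval from -0.73 to 0.47.

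Of the effectors, Bax was lower in fetal cells and Bak1 could not be separated. Bax read 11.69, 11.65 and 11.66 in the fetal replicates against 12.59, 12.68 and 12.88 in the adult basal replicates (probe A_55_P2137406). The SD of the fetal values was 0.02, and every adult basal array was above them. The change was -1.05 (SE 0.11, 95% interval -1.31 to -0.79), with a Benjamini-Hochberg-adjusted p of 1.2e-04 and a Holm-adjusted p of 0.386 by limma. The interval reaches below 2-fold, and without adult basal 3 the change was -0.97. It was -1.04 within the first slide and -1.03 within the other.

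Bak1, the second effector, read 12.11, 12.10 and 12.34 in the fetal replicates against 12.65, 12.10 and 12.40 in the adult basal replicates (probe A_55_P2013113). Adult basal 2 sat among the fetal arrays, and the change was -0.20 with a 95% interval from -0.58 to 0.17.

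For each of the 5 BH3-only genes all fetal arrays lay above all adult basal arrays, which held for 33.4% of all genes tested, and their changes ran from 0.36 to 3.55. Pmaip1 encodes NOXA, a BH3-only protein that binds MCL1 with preference and was first described as a p53 target. It read 11.42, 11.74 and 11.47 in the fetal replicates against 6.98, 8.57 and 8.45 in the adult basal replicates (probe A_51_P477121). The fetal arrays agreed closely, whereas adult basal 1 was well below the other adult basal arrays, and only 2.77% of tested probes had a larger SD among the adult basal arrays than the 0.88 of Pmaip1. The change was 3.55 (SE 0.40, 95% interval 2.61 to 4.48), larger in size than that of 95.6% of tested probes. In limma's test it passed by the less strict method (Benjamini-Hochberg-adjusted p = 1.8e-04) but not by Holm's (Holm-adjusted p = 0.626). Without adult basal 1, the change was smaller, 3.04, but its standard error fell from 0.40 to 0.14 and the Holm-adjusted p was 0.0096, which made Pmaip1 the 1 gene called. Within the first slide the change was 3.71, and within the other it was 3.04.

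Bmf, whose product is tied to the cytoskeleton and to loss of attachment, read 9.46, 9.72 and 9.63 in the fetal replicates against 9.11, 8.90 and 8.95 in the adult basal replicates (probe A_55_P2029106). It was higher on every fetal array, by 0.62 (SE 0.11, Benjamini-Hochberg-adjusted p = 0.0024, Holm-adjusted p = 1 by limma), a change of 1.54-fold.

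Bcl2l11 encodes BIM, which is needed for the death of cells that fill the lumen of the mammary end bud. Its probe, A_51_P484880, gave 8.34, 8.25 and 8.40 in the fetal replicates against 8.08, 7.52 and 7.98 in the adult basal replicates, and adult basal 2 was the lowest. The change was 0.47 (SE 0.16, Benjamini-Hochberg-adjusted p = 0.037 by limma). It was 0.30 without adult basal 2. Measured within slides, it was 0.31 in the first and 0.80 in the other.

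Bid, which links death receptors to mitochondria once its protein is cleaved by caspase 8, read 11.93, 11.86 and 12.13 in the fetal replicates against 11.76, 11.62 and 11.47 in the adult basal replicates (probe A_52_P574653). The fetal arrays were just above the adult basal arrays, and the change was 0.36 (SE 0.12, Benjamini-Hochberg-adjusted p = 0.040 by limma). Bbc3, which encodes the p53 target PUMA, read 11.14, 11.25 and 11.11 in the fetal replicates against 10.50, 10.90 and 10.996 in the adult basal replicates (probe A_51_P248122). Adult basal 1 was again the lowest, and the change of 0.37 (SE 0.15) missed the threshold by either method (Benjamini-Hochberg-adjusted p = 0.065 by limma) and was 0.22 without adult basal 1.

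**Figure D2:**
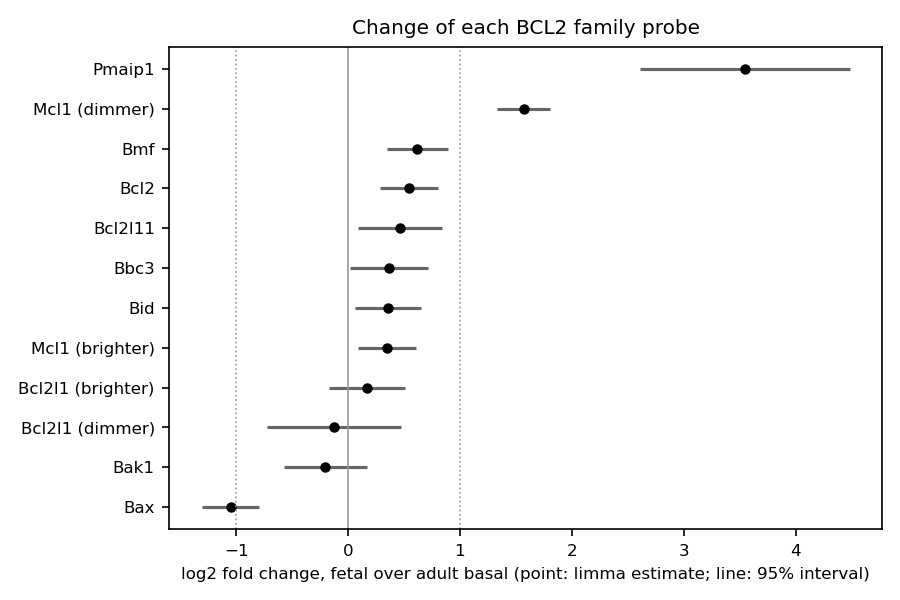
Log2 fold change of fetal over adult basal cells for each BCL2 family probe (points, limma estimates; lines, 95% intervals; dotted lines, 2-fold in either direction). The intervals of Pmaip1 and the dimmer Mcl1 probe lie wholly beyond 2-fold, that of Bax spans 2-fold in the other direction, and the intervals of Bak1 and both Bcl2l1 probes include 0.

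Counted together through the brightest probe of each gene, 7 of the 10 genes were higher on every fetal array and 1, Bax, on every adult basal array, while Bcl2l1 and Bak1 overlapped. Over all 15725 genes tested, the fetal arrays were all above in 33.4% and the adult basal arrays in 35.0%. Calls with Benjamini-Hochberg adjustment and no fold limit were made for 6 genes in the fetal direction (background 30.2%) and for Bax in the adult basal direction (background 30.0%). With the 2-fold limit the counts were 1 and 1 of 10, beside 15.8% and 13.9% of all genes. By Holm adjustment and 2-fold, 0 and 0 of the 10 were called, beside 6.02% and 5.2% of genes, and over all probes 11.1% were called. The median change of the 10 genes was 0.36 and that of all genes tested was -0.04. The 10 genes were chosen as a family with earlier results of these arrays known, and these shares are a description. In both slides, 8 of the 10 genes had the sign of their change over all arrays. Bcl2l1 turned within the first slide (-0.15) and Bak1 within the other (0.12).

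**Figure D3:**
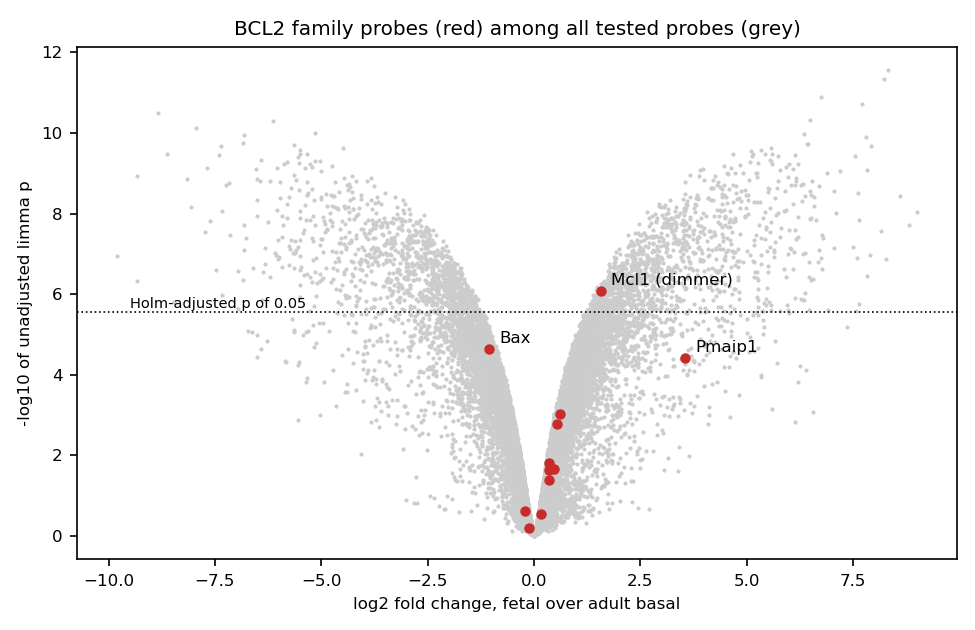
Every tested probe by its log2 fold change (horizontal axis) and the -log10 of its unadjusted p by limma (vertical axis), with the 12 BCL2 family probes in red and the Holm limit as a dotted line. The dimmer Mcl1 probe is the single family probe above the line, and Pmaip1 has the largest family change but lies below it.

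Since the guardians act on the effectors, the change in their log2 ratio within an array was computed too, for pairs chosen after the values were seen. A ratio of signals from different probes has no meaning as a level, but its change between populations does. The Bcl2 to Bax ratio was higher in fetal cells by 1.59 on the log2 scale, with SDs of 0.12 among fetal and 0.19 among adult basal arrays (n = 3 in each). The Bcl2l1 to Bax ratio was higher by 1.22, by the brighter Bcl2l1 probe. For Mcl1 to Bax the change was 1.40 by the brighter Mcl1 probe and 2.62 by the dimmer one. Against Bak1 the changes were 0.74 for Bcl2, 0.37 for Bcl2l1, and 0.55 and 1.77 for the brighter and dimmer Mcl1 probes. The Pmaip1 to Mcl1 ratio was higher in fetal cells by 3.20 or 1.98, by the brighter or the dimmer Mcl1 probe, with an SD of 0.85 among adult basal arrays either way. The ratios share genes with each other and no test was made, so these changes are a description.

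The wider pathway was read from 5 lists of 67 further apoptosis genes, of which 60 were tested. By Holm adjustment and 2-fold, 2 were higher in fetal and 5 in adult basal cells, beside 6.02% and 5.2% of all genes. By Benjamini-Hochberg adjustment and 2-fold the counts were 9 and 12, beside 15.8% and 13.9% of all genes. Their median change was -0.05. If any probe of a gene could call it, 10 of the 60 were called by Holm adjustment in place of 7. The share of all genes called by that rule is not given here, so the 10 cannot be set against it. Of all probes tested, 11.1% were called. Of the 7 Holm calls, those of Bnip3, Birc5 and Ddit3 held whichever of the 6 arrays was left out, whereas those of Bik, Bnip3l, Bcl6 and Stat5a each held in 1 of the 6 cases, with Holm-adjusted p values up to 0.184, 0.216, 0.177 and 0.653 otherwise. Bik and Stat5a were called only without adult basal 2, and Bnip3l and Bcl6 only without adult basal 1.

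Other BCL2 family genes gave 1 call in the fetal direction and 2 in the adult basal direction among 11 tested (6.02% and 5.2% of all genes), with a median change of 0.50. With Benjamini-Hochberg adjustment and 2-fold there were 4 and 4 (15.8% and 13.9% of all genes). Bik, a BH3-only gene, was higher in fetal cells by 1.74 (SE 0.11, Holm-adjusted p = 0.012 by limma). Bnip3, the gene with the brightest probe of the list, was lower in fetal cells by 2.55 on the log2 scale (95% interval of the change -2.80 to -2.29), and its 3 probes moved the same way. Bnip3l changed by -1.94 (SE 0.12). Both encode mitochondrial proteins best known as receptors for mitophagy and as targets of the hypoxia response, rather than as triggers of apoptosis. The signal of Bcl2a1c, a guardian paralog, did not clear background on any of the 6 arrays. Its paralog Bcl2a1d, well above background on all 6, changed by -2.35 (Benjamini-Hochberg-adjusted p = 3.2e-04 by limma). Bcl2l2 changed by -1.12 on its brighter probe (Benjamini-Hochberg-adjusted p = 7.3e-05 by limma) and by -0.94 on its dimmer probe. Bcl2a1d and Bcl2l2 were thus higher in adult basal cells, and both are named after their values were seen. Bcl2l14 had probes that moved unequally, with 1.49 (Holm-adjusted p = 0.180) on the brighter one and 6.71 (Holm-adjusted p = 0.0015 by limma) on the dimmer, which was well above background on 2 of the 3 adult basal arrays. Brighter and dimmer go by the mean over all 6 arrays. On the fetal arrays alone the dimmer Bcl2l14 probe gave the higher mean signal (11.72 against 9.62). Bcl2l14 is named after its values were seen.

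The apoptosome and caspase list, which acts after the mitochondrial step, had no gene called by Holm adjustment by limma among 13 tested, 10 with an unadjusted p under 0.05 (63.8% of all genes), and a median change of 0.70. Benjamini-Hochberg adjustment with the 2-fold limit called 3 genes, all higher in fetal cells (15.8% of all genes). Among them was Aifm1 (1.22), which encodes a mitochondrial flavoprotein and is named after its value was seen. Cycs, which encodes cytochrome c and had the brightest probe of the list, changed by 0.53 (SE 0.13).

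Among 8 inhibitor of apoptosis genes tested, 4 had an unadjusted p under 0.05 (63.8% of all genes) and Birc5 alone was called by Holm adjustment (6.02% of all genes in the fetal direction), with a change of 6.20 (SE 0.22, Holm-adjusted p = 2.5e-04 by limma). Its product, survivin, is also a part of the chromosomal passenger complex of dividing cells. Naip5, which had the brightest probe of the list, changed by -0.32 and the median change was 0.07.

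In the death receptor pathway, 0 of 11 genes were called by Holm adjustment by limma, 9 had an unadjusted p under 0.05 (63.8% of all genes), and the median change was -0.50. With Benjamini-Hochberg adjustment and 2-fold, 3 genes were called, each higher in adult basal cells (13.9% of all genes): the receptors Tnfrsf1a (-1.03 on its brightest probe, the brightest of the list, and 0.16 with an overlap on its other probe) and Tnfrsf10b (-1.06), and the ligand Tnfsf10 (-1.92, SE 0.48). The last 2 are named after their values were seen. Probes for Cflar, an inhibitor of caspase 8 that was likewise picked out afterwards, disagreed in direction, with 0.66 on the brighter and -3.09 and -3.01 on the others (Holm-adjusted p = 0.0015 and Holm-adjusted p = 0.0071 by limma).

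Among 17 regulators of BCL2 family genes and proteins, Holm calls were made for 3 as higher in adult basal cells (5.2% of all genes) and 0 as higher in fetal cells (6.02%). With Benjamini-Hochberg adjustment and 2-fold there were 4 and 1 (13.9% and 15.8% of all genes), and the median change was -0.23. The Holm calls were Bcl6, a transcriptional repressor, at -3.20 (SE 0.20, Holm-adjusted p = 0.015), Ddit3, which encodes the stress factor CHOP, at -3.08 (SE 0.15, Holm-adjusted p = 0.0027), and Stat5a, a mediator of prolactin signalling, at -1.73 (SE 0.13, Holm-adjusted p = 0.047), all by limma. Jun, which had the brightest probe of the list, changed by 1.34 with a Holm-adjusted p of 1. Trp53, a known regulator of Pmaip1, Bbc3 and Bax, is named after its value was seen and changed by 0.15 (95% interval -0.24 to 0.55). Trp63, also named afterwards and also a basal cell marker, had probes that moved unequally. Its brighter probe changed by -0.08 with an overlap, and its dimmer probe by -3.06 (Holm-adjusted p = 1.9e-04 by limma). On the adult basal arrays alone the dimmer Trp63 probe gave the higher mean signal (13.65 against 13.38).

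**Figure D4:**
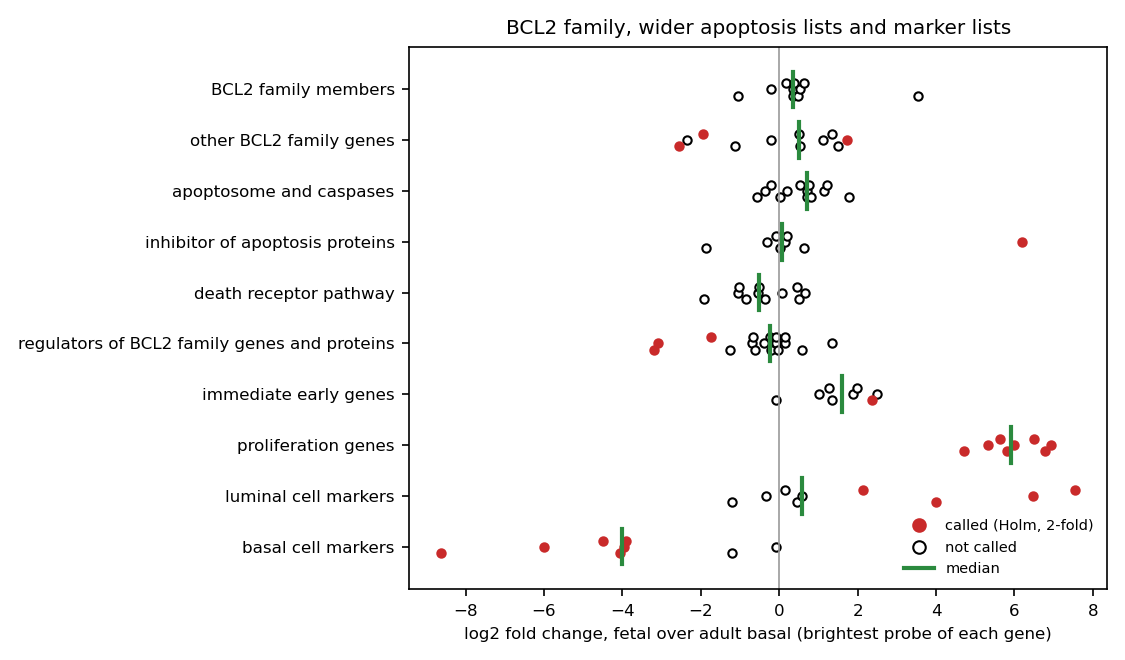
Log2 fold change of fetal over adult basal cells for the 10 BCL2 family genes, 5 wider apoptosis lists and 4 other lists, 1 point per gene through its brightest probe (red, called by Holm adjustment and 2-fold; white, not called; green bar, median of the list). The family median is 0.36, and the proliferation genes (median 5.90) and basal cell markers (median -4.01) lie farthest out in the opposite directions.

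The labelled cell types were checked against markers, and several marker lists moved with the populations. Basal cell markers summed to a normalized signal of 822518, 760070 and 752096 on adult basal arrays 1 to 3 and 65568, 57901 and 52204 on fetal arrays 1 to 3. Of the 8 genes, 6 were called as higher in adult basal cells by Holm adjustment, beside 5.2% of all genes (Krt5, Acta2, Myh11, Oxtr, Cnn1 and Mylk), and all 8 were well above background in both populations. The brightest probe was that of Acta2, the smooth muscle actin of contractile basal cells. Luminal markers summed to 230911, 237986 and 192417 in the fetal replicates against 136175, 128294 and 130482 in the adult basal replicates. Of 9 luminal genes tested, 4 were called as higher in fetal cells, beside 6.02% of all genes (Elf5 by 7.55, Foxa1 by 6.46, Kit by 4.003 and Cd24a by 2.15), and Krt18 had the brightest probe. Of the others, Krt19 was higher on every adult basal array (-1.22, Benjamini-Hochberg-adjusted p = 4.1e-04 by limma). Prlr had probes that went opposite ways, with -0.35 on the brighter and 1.85 (Holm-adjusted p = 0.026) on the dimmer. Esr1 was left out of the count because its brightest probe was removed by the filter, and of its other probes the 1 tested was higher on every adult basal array (fitted change -3.58), with 1 of 3 fetal arrays above background. These 3 are named after their values were seen. With an array left out, the Holm calls of Foxa1 and Cd24a held in 2 and 1 of 6 cases and that of Krt5 in 4 of 6 (lost without fetal 1 and without adult basal 1), while those of the other named basal and luminal genes held in all 6.

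Proliferation genes moved most, with 8 of 8 called as higher in fetal cells (6.02% of all genes) and a median change of 5.90. Their summed signal was 67327, 67152 and 68840 in fetal replicates 1 to 3 against 890, 2099 and 1418 in adult basal replicates 1 to 3. Adult basal 1 had the lowest sum. Among the adult basal arrays it was also the lowest for Pmaip1, Bbc3, Bax and the dimmer Mcl1 probe. For Bak1, Bcl2l11, Bmf and Bid it was the highest, and no link to the proliferation genes was tested. With an array left out, 4 of the proliferation calls, among them Ccnb1 and Aurkb, held in all 6 cases, that of Top2a in 5, and those of Mki67, Cdk1 and Bub1 in 2. Mki67, which had the brightest probe, changed by 5.98 (SE 0.45), and the signal of Aurkb did not clear background in adult basal cells, so that its fitted change, which enters the median, is no measured fold. Immediate early genes, which respond within minutes to handling and other stimuli, had 1 gene of 8 called as higher in fetal cells by Holm adjustment (6.02% of all genes), 6 by Benjamini-Hochberg adjustment and 2-fold (15.8% of all genes), and a median change of 1.61. The Holm call was Fosb (2.36), which was not called without fetal 1 or fetal 2. Their summed signal was 194985, 232840 and 210123 in the fetal replicates against 70517, 63753 and 78568 in the adult basal replicates, with Jun as the brightest probe.

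Markers of cells that the sort is meant to remove were counted as well, by CD31, CD45 and Ter119 for endothelial, white and red blood cells, and by the EpCAM gate (and BP-1 in adults) for fibroblasts. Leukocyte markers had 0 of 7 genes called by limma (6.02% and 5.2% of all genes in the fetal and adult basal directions), 2 with an unadjusted p under 0.05 (63.8% of all genes), and summed to between 26308 and 34529 on the fetal and between 25374 and 34452 on the adult basal arrays, with Itgam as the brightest probe. The genes called by Benjamini-Hochberg adjustment and 2-fold were Cd74 (-2.79) and Lyz2 (-1.76), both higher in adult basal cells (13.9% of all genes). Endothelial markers, beside the same shares, had 0 of 4 called, 2 with an unadjusted p under 0.05, and summed to between 10751 and 12494 on the fetal and between 11040 and 13649 on the adult basal arrays, with Kdr as the brightest probe. Here Cdh5 (-2.70) and Emcn (-1.79) were called by Benjamini-Hochberg adjustment and 2-fold, again as higher in adult basal cells (13.9% of all genes). A sum follows its brightest probes, so that sums can be close while dimmer markers differ, and Cd74, Lyz2, Cdh5 and Emcn are named after their values were seen. Of the erythroid markers only Hba-a1 was tested, with an overlap of the populations, and the list summed to between 540 and 1103 on the fetal and between 453 and 999 on the adult basal arrays. Fibroblast markers summed to 5429, 5712 and 7019 in the fetal replicates against 15538, 17868 and 25911 in the adult basal replicates. Of the 6, Dcn had the brightest probe on the adult basal arrays and Col1a2 on the fetal arrays. By Holm adjustment 1 was called, Dcn at -3.78 (5.2% of all genes), though not without fetal 1 (Holm-adjusted p = 0.053 by limma). Benjamini-Hochberg adjustment and 2-fold called 2, Dcn and Lum (-1.05), as higher in adult basal cells (13.9% of all genes). On every adult basal array 5 of the 6 were higher (35.0% of all genes). Lum and Col1a2 are named after their values were seen. Tek, an endothelial marker named after its values were seen, did not clear background in fetal cells, and no marker failed to do so on all 6 arrays. The part of cell division, epithelial lineage, immediate early response, fibroblasts and digestion in the differences of Pmaip1, Bax, Mcl1 and the other family genes was not tested.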

How the data were processed

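The authors deposited the spot intensity of each array, processed by Feature Extraction 11.0.1.1 (background and spatial trend subtracted, linear, not normalized between arrays), and a table of log2 values that they quantile normalized (column medians 7.11). Both sources name Low Input Quick Amp labelling, the methods in its whole-transcript (WT) form for exon analysis and the labels without it. No column holds the authors' own comparisons.

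Processed signal was taken to log2, outlier spots (104 to 326 on an array) were dropped, spots of a probe averaged and the 6 arrays quantile normalized. Depending on the array, 76.4% to 83.3% of probes cleared background, and no spot was saturated. The number of arrays limits the precision. Accessions of 27235 probes matched the GRCm38.p6 RefSeq table. Probes in the lowest of 3 k-means clusters (100 starts, seed 1) in both populations were removed, leaving 20448. Differences were fitted with limma 3.58.1 in R 4.3.3, with no covariates, and adjusted over all probes by Holm's method. A gene was read through its brightest probe, by the mean over the 6 arrays. Tables and plots used Python 3.11.15, pandas 2.3.3 and matplotlib 3.10.9, and the fit was tested on simulated data.

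The members, the other lists and the tests were chosen with earlier results of these data known. The rule for named genes took every member with all its probes and, of each other list, genes called by Holm adjustment (at most 6), the gene with the brightest probe and markers not above background on any array. Exceptions are marked in the text. The values of some genes in the lists are not reported here. Protein sequences were not used here. The normexp alternative was run on the median spot signal. Alternatives were 75th percentile scaling, the deposited log2 values, normexp (offset 50), other filters, Benjamini-Hochberg adjustment, trend and robust estimation, an offset of 16, each array left out, replicate and slide blocks, and other rules for genes with several probes.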

Additional observations from a re-analysis of the deposited data

How the results depend on the processing

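Over the 12 BCL2 family probes, 203 values were recomputed under alternatives, of which 190 kept their direction and side of the threshold, 9 lost the call, 3 gained one and 1 reversed. The 9 lost calls were all of the dimmer Mcl1 probe: its Holm p was 0.093 without the low-signal filter, 0.292 with the replicate block, 0.103 with the slide block and 0.061 to 0.283 with an array left out, and its change stayed between 1.53 and 1.63. The gains were Bax and Pmaip1 with Benjamini-Hochberg adjustment and Pmaip1 without adult basal 1. The dimmer Bcl2l1 probe ranged from -0.42 to 0.057 with an array left out, being positive without adult basal 3, and was removed by the filter after normexp. Within a slide, where 1 or 2 arrays of a population remain and no test was made, it was 0.53 in the slide with 2 fetal arrays, where Bak1 was 0.12, and the brighter Bcl2l1 probe was -0.15 in the other.

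Over all probes, 2270 were called, 1182 with no low-signal filter, 6133 with Benjamini-Hochberg adjustment and 3356 with trend and robust estimation. The count was 1302 with the replicate block, 1541 with the slide block and between 948 (without fetal 1) and 1949 with an array left out. Of the 10 family genes, 2 were called with Benjamini-Hochberg adjustment, 1 (Mcl1) when any probe of a gene could call it, and 0 to 1 with an array left out. Of the 60 genes in the 5 other apoptosis lists, 7 were called, 3 with no low-signal filter, 21 with Benjamini-Hochberg adjustment, 14 with trend and robust estimation, 3 with the replicate block, 3 with the slide block and 3 to 5 with an array left out. Deviations from the population means correlated by -0.03, 0.09 and 0.05 between same-numbered fetal and adult basal arrays. Between arrays of different numbers the correlations ran from -0.13 to 0.12. With 3 arrays in each population, these values cannot show whether same-numbered samples were prepared together. The cause of these changes was not tested. Signal cleared background for all 12 family probes on each of the 6 arrays, and each population had 3 arrays.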
